A study of Mus musculus with 28 samples.

Results

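Th17 and Th1 cells specific for one melanoma antigen were compared on the day they left culture, before any transfer into mice. The comparison rests on 4 of the 28 arrays of the series. These are 1 array of unstimulated Th1 cells, 1 of unstimulated Th17 cells, and 1 of each after 2 h of restimulation with antibodies to CD3 and CD28. A gene was taken as different when its level differed by at least 1 log2 unit (a 2-fold difference) with the same sign in the unstimulated and in the restimulated pair. Of 19938 measured genes, 333 were higher in the Th17 culture by this rule (1.67% of all genes) and 128 were lower (0.642%). With 1 array per group these differences carry no p-value and no SD.

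The T cells of all groups were CD4+ cells from BwTRP1 Rag1-/- mice, which carry a T cell receptor for a peptide of TRP1. TRP1 is a pigment protein of melanocytes and melanoma cells. Through loss of Rag1 these mice lack B cells and T cells of other receptors. Both cultures ran for 7 days with irradiated C57/B6 splenocytes and TRP1 peptide. Th1 cultures received IL-12 and anti-IL-4. Th17 cultures received IL-1, IL-6, IL-21, TGFβ2 and antibodies to IL-2, IL-4 and IFN-γ, with IL-23 later, and medium with IL-2 was used in the later days of culture. The groups therefore differ in a whole set of cytokines and antibodies, whose parts cannot be told apart. The other 24 arrays are of cells recovered at day 5 (3 Th1 and 3 Th17 samples in each stimulation state) or day 15 (2 Th1 and 4 Th17 samples) from spleen and inguinal lymph node of sublethally irradiated B6.PL (Thy1.1+) hosts. Recovered cells were enriched for CD4 and sorted for Thy1.2. The labels describe this sort for recovered cells, not for the cultures. Nothing in the labels says whether the unstimulated and restimulated arrays of a culture came from separate cultures, so agreement between the states is not a replicate.

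T helper cells take on different effector programs in response to the cytokines around them. Th1 cells are driven by IL-12 and the transcription factor T-bet (Tbx21), and make IFN-γ. Th17 cells are driven by IL-6, TGF-β and IL-23 with RORα among their transcription factors, make IL-17A, IL-17F and IL-22, and act in defence of epithelia and in autoimmune inflammation. In antitumor transfer models both types are studied for how long they persist and how they kill.

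The 4 arrays were alike in most genes. The median difference, Th17 minus Th1, over all genes was 0.0 log2 units in the unstimulated pair and -0.09 in the restimulated pair. The array medians lay between 7.22 and 7.31 log2 units. Across genes, which are not independent replicates, the levels on the Th1 and Th17 arrays correlated with r = 0.977 unstimulated and 0.975 restimulated. T cell identity genes did not separate the cultures: none of the 12 measured met the rule, and their mean level was 12.07 and 11.98 log2 units in the unstimulated Th1 and Th17 arrays and 11.90 and 11.98 after restimulation. Cd4, the coreceptor that defines these cells, read 12.39 and 12.71 unstimulated and 11.90 and 12.37 restimulated.

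**Figure D1:**
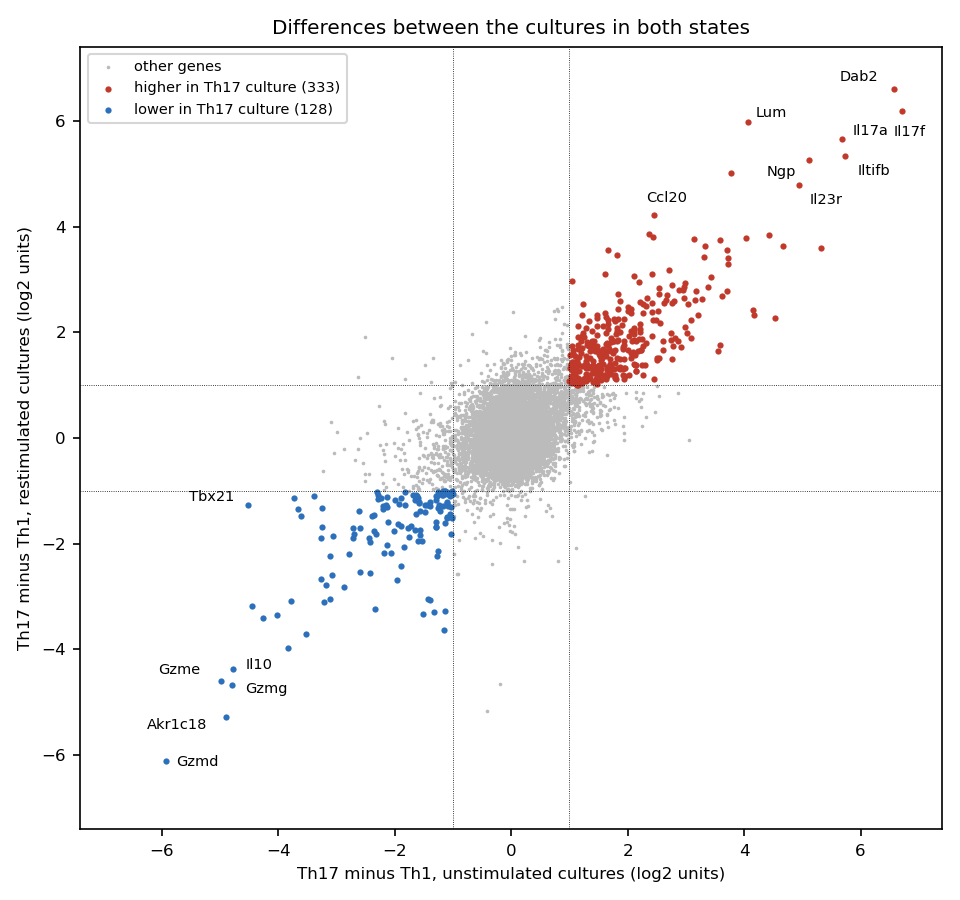
Difference between the Th17 and Th1 cultures for each of 19938 genes, unstimulated on the x axis and after 2 h of restimulation on the y axis, both in log2 units, with 1 array per culture and state. Dotted lines mark 1 log2 unit. The 333 red genes are higher and the 128 blue genes lower in the Th17 culture in both states, and Il17f, Dab2 and Gzmd lie at the far ends.

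Most genes that met the rule did so by a small margin. Among the higher genes, 72 differed by at least 2 log2 units in both states, 20 by at least 3 and 7 by at least 4. The counts among the lower genes were 25, 13 and 5. The median difference of the higher genes was 1.69 log2 units unstimulated and 1.66 restimulated, and that of the lower genes was -1.84 and -1.55. Just inside the threshold lay Ptges, with differences of 1.00 and 1.08, and Mcpt8, with -1.0 and -1.05. Taken alone, the unstimulated pair held 544 higher and 360 lower genes and the restimulated pair 662 and 226. The differences had opposite signs, at 1 log2 unit or more in each state, for 2 genes higher unstimulated and 8 genes lower unstimulated. The Th1 level lay under the array median in both states for 167 of the 333 higher genes, and the Th17 level did so for 44 of the 128 lower genes. No detection calls were used, so a level in that range is not shown to be above background and the fold from it may be understated.

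The cytokines that name the Th17 lineage were among the most separated genes. Il17f read 6.29 log2 units in the unstimulated Th1 array and 13.00 in the unstimulated Th17 array, and 7.14 and 13.32 after restimulation. This is a 105-fold difference unstimulated and a 72.7-fold difference restimulated. Il17a read 6.17 and 11.86 unstimulated and 7.17 and 12.82 restimulated. Both genes were thus far above their Th1 levels in the Th17 culture before any restimulation. Iltifb, a near-identical copy of the IL-22 gene, read 4.31 and 10.03 unstimulated and 5.72 and 11.06 restimulated. Il22 itself had no probe set of its own, and the probes of Iltifb may also bind its transcript.

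Il17a and Il17f are neighbours on mouse chromosome 1, and their start regions are shown because these genes encode the cytokines that name the lineage. Each window is 300 bases long and reaches from upstream of the start of transcription to just past it (RefSeq, GRCm38.p6). Il17a lies on the plus strand at chr1:20730655-20730954 and Il17f on the minus strand at chr1:20784221-20784520. Capitals mark AGGTCA, the core that ROR factors bind, or its reverse complement TGACCT. The windows are 48.8% identical in a global alignment, and each holds 1 match.
Il17a: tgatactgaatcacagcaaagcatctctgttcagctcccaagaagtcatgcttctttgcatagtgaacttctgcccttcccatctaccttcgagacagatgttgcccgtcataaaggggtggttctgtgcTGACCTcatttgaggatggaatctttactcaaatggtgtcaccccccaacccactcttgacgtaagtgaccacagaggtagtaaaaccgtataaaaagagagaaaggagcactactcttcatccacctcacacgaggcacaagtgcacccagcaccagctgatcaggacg
Il17f: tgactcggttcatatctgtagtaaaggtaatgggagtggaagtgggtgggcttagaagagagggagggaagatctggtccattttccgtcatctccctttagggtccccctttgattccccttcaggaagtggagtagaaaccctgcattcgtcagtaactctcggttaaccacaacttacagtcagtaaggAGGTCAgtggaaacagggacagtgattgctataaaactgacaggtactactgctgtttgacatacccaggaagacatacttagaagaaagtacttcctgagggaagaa

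The core itself did not set the higher genes apart. It was found on either strand in 15.6% of the 263 higher genes with a window, in 17.8% of 101 lower genes and in 13.8% of all 15614 genes with a window. A match is a stretch of letters and not a measured binding site.

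Il21, Il9 and the chemokine Ccl20 differed less in the unstimulated cultures. Il21, a cytokine that feeds back on Th17 cells, read 7.27 and 9.74 log2 units unstimulated and 11.11 and 12.22 restimulated in the Th1 and Th17 arrays. It was therefore high in both cultures after restimulation. Ccl20, the chemokine that attracts cells with the receptor CCR6, read 6.10 and 8.56 unstimulated and 7.41 and 11.64 restimulated. Here the gap was wider after restimulation (4.23 log2 units) than before it (2.46). Il9 read 5.97 and 7.85 unstimulated and 7.16 and 8.51 restimulated. Il10, an anti-inflammatory cytokine that several helper types make, went the other way, with 11.65 in Th1 and 6.87 in Th17 unstimulated and 12.27 and 7.90 restimulated.

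Cytokine receptor genes also differed. Of 28 genes measured in this list, 6 were higher in the Th17 culture and 2 lower, against medians over the list of -0.04 unstimulated and 0.15 restimulated. Il23r, the IL-23 receptor chain that sustains Th17 cells, read 6.25 and 11.20 unstimulated and 6.33 and 11.12 restimulated. Restimulation for 2 h left it nearly where it was in each culture. Il17re, a receptor chain for IL-17C, read 6.65 and 11.17 unstimulated and 7.09 and 9.36 restimulated. Il6ra, the IL-6 receptor chain, read 7.76 and 10.51 unstimulated and 7.95 and 9.80 restimulated. Il1r2, a decoy receptor for IL-1, read 8.14 and 11.42 unstimulated and 9.16 and 11.80 restimulated. Ifngr2, the signalling chain of the IFN-γ receptor, was higher by 2.11 and 1.97 log2 units. The sixth higher gene, Il1rn (2.00 and 2.40), encodes a secreted antagonist of the IL-1 receptor and not a receptor. The lower members were Il18r1 (-1.10 and -1.05) and Il18rap (-1.28 and -1.09), the chains of the IL-18 receptor, which are adjacent on chromosome 1. Il1r1 had no probe set of its own.

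Of the 16 measured genes of the Th17 program list, 11 were higher and 1, Il10, was lower, and the list medians were 2.36 log2 units unstimulated and 2.10 restimulated. Rora, which encodes RORα, read 9.38 and 11.22 unstimulated and 8.93 and 11.66 restimulated. Ccr6, the receptor for CCL20, read 5.65 and 8.83 unstimulated and 6.28 and 9.06 restimulated. Tmem176a and Tmem176b, a neighbouring pair of membrane proteins on chromosome 6, were higher by 2.97 and 2.85 and by 2.26 and 2.36 log2 units. Ahr, the aryl hydrocarbon receptor, had differences of 1.06 and 0.45 and Maf of -0.23 and 0.74, so neither met the rule.

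**Figure D2:**
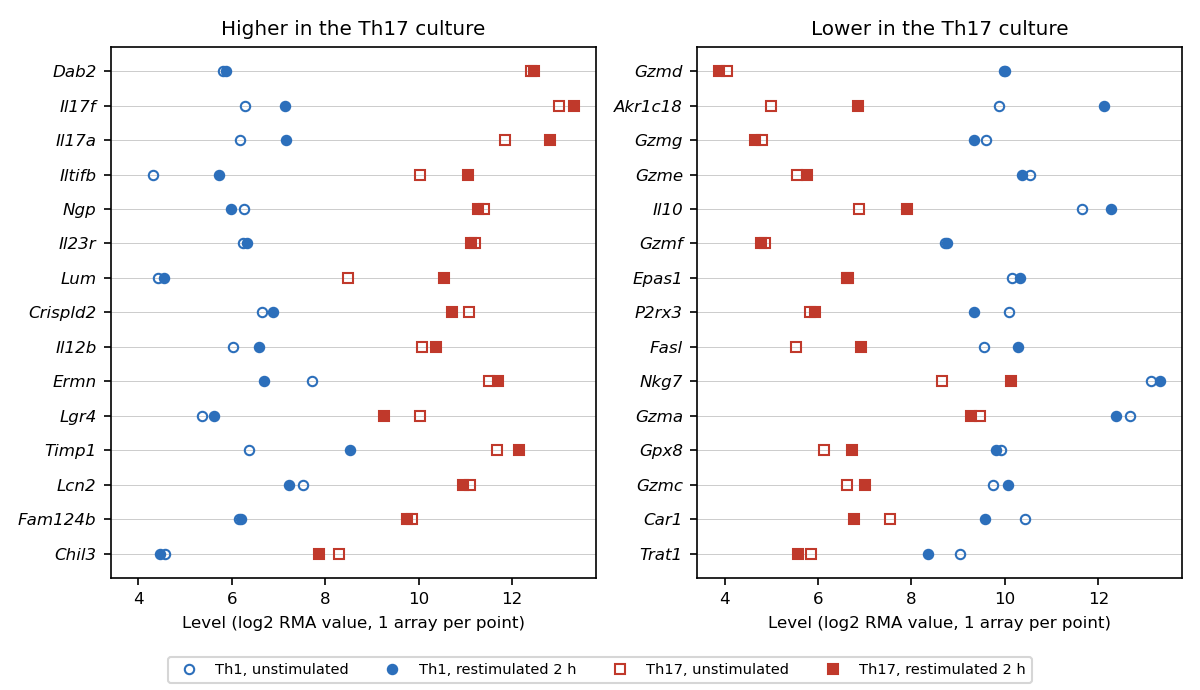
Level in log2 units (RMA value, x axis) of the 15 most separated genes in each direction, with 1 array per point. Circles are Th1 and squares Th17, open when unstimulated and filled after 2 h of restimulation. For each gene both Th17 points lie on one side of both Th1 points, and the state moves most genes less than the culture does.

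Ranked by the smaller of its 2 differences, Dab2 led the higher genes. It encodes an adaptor protein of endocytosis and TGF-β signalling. Its level was 5.82 in the unstimulated Th1 array, 12.40 in Th17, and 5.87 and 12.47 after restimulation, a 95.3-fold and 97.1-fold difference. A second probe set of the same gene read between 3.78 and 4.01 on all 4 arrays and did not show it. Among the higher genes 7 had more than 1 probe set, and for 5 of these not every probe set met the rule. Ermn, a cytoskeletal protein best known from oligodendrocytes, read 7.72 and 11.50 unstimulated and 6.69 and 11.71 restimulated. Fam124b, a protein of little known function, read 6.16 and 9.86 unstimulated and 6.19 and 9.75 restimulated. Lgr4, a receptor for R-spondins, read 5.36 and 10.02 unstimulated and 5.63 and 9.27 restimulated.

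Lum, Timp1, Crispld2 and Il12b were also among the 15 most separated higher genes. Lum, a proteoglycan of collagen matrix, read 4.43 and 8.49 log2 units unstimulated and 4.56 and 10.55 restimulated, and its neighbour Dcn on chromosome 10 was just inside the threshold, at 1.01 and 1.32. Timp1, an inhibitor of matrix metalloproteases, read 6.36 and 11.68 unstimulated and 8.54 and 12.14 restimulated. Crispld2, a secreted protein, read 6.65 and 11.07 unstimulated and 6.88 and 10.72 restimulated. Il12b, the p40 chain shared by IL-12 and IL-23, read 6.03 and 10.07 unstimulated and 6.59 and 10.38 restimulated. Of the 15 genes of the TGF-β response list, Tgfbi (4.15 and 2.42) and Itgae (1.81 and 2.08) were higher and none was lower, and the list medians were 0.35 and 0.21.

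Genes of the Th1 program were lower in the Th17 culture or did not meet the rule. Of 15 measured, 8 were lower and none was higher, with list medians of -1.19 and -1.05 log2 units. Ifng, which encodes IFN-γ, read 12.81 in Th1 and 10.45 in Th17 unstimulated, and 13.70 and 12.24 restimulated. The Th17 culture thus held a high level of Ifng in both states, below that of the Th1 culture. Tbx21, which encodes T-bet, read 11.33 and 6.81 unstimulated and 11.63 and 10.36 restimulated, so its gap narrowed from 4.53 to 1.27 log2 units. Cxcr3, a chemokine receptor that T-bet induces, read 11.30 and 7.64 unstimulated and 10.16 and 8.81 restimulated. Eomes, the other T-box factor of this program, read 7.43 and 6.14 unstimulated and 9.35 and 7.65 restimulated. The IL-12 receptor chain Il12rb2 read 12.72 and 11.76 unstimulated and 11.98 and 11.61 restimulated, and Stat4 differed by -0.29 and 0.17, so neither met the rule.

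Genes of cytotoxic granules were the most separated list in the lower direction. Of 18 measured, 10 were lower in the Th17 culture and none was higher, and the list medians were -2.29 and -2.37 log2 units. Gzmd read 9.98 log2 units in Th1 and 4.05 in Th17 unstimulated, and 10.01 and 3.89 restimulated, a 60.8-fold and 69.7-fold difference. Gzme read 10.53 and 5.54 unstimulated and 10.37 and 5.77 restimulated. Gzmg read 9.60 and 4.81 unstimulated and 9.33 and 4.66 restimulated. Gzmf and Gzmc were lower by between 3.05 and 3.97 log2 units in each state. These serine proteases are close copies of each other, so a probe set may bind more than 1 of their transcripts and the 5 values are not independent. Gzma, a granzyme encoded on chromosome 13 beside Gzmk and Gpx8, read 12.68 and 9.47 unstimulated and 12.38 and 9.28 restimulated.

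Other killing genes followed in part. Prf1, the pore-forming perforin, read 9.66 and 7.70 unstimulated and 10.58 and 7.89 restimulated. Fasl, the ligand of the death receptor Fas, read 9.56 and 5.53 unstimulated and 10.27 and 6.93 restimulated. Nkg7, a granule membrane protein, read 13.12 and 8.66 unstimulated and 13.31 and 10.14 restimulated. Gzmb, the granzyme most used as a marker of killing, read 12.50 and 11.65 unstimulated and 13.08 and 12.36 restimulated, high in both cultures, and did not meet the rule. The list was therefore lower in part only, with Gzmb, Gzmm, Gzmn, Serpinb9, Serpinb6b, Srgn, Ctsw and Lamp1 outside the rule.

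Gzmd and Gzme share a run of 6 adjacent genes on chromosome 14, from Mcpt4 through Mcpt8, Ctsg, Gzme and Gzmd to Gzmg, all lower in the Th17 culture. Mcpt1 and Mcpt2, a neighbouring pair on the same chromosome, were higher. The start regions of Gzmd and Gzme are shown because the granzymes moved together and their windows are nearly the same. Both lie on the minus strand (RefSeq, GRCm38.p6), Gzmd at chr14:56132544-56132843 and Gzme at chr14:56120576-56120875. The windows are 93.4% identical, and those of all pairs among Gzmc, Gzmd, Gzme, Gzmf and Gzmg are between 73.5% and 93.4% identical. Capitals mark TGTGGT, a core bound by RUNX factors, or its reverse complement ACCACA.
Gzmd: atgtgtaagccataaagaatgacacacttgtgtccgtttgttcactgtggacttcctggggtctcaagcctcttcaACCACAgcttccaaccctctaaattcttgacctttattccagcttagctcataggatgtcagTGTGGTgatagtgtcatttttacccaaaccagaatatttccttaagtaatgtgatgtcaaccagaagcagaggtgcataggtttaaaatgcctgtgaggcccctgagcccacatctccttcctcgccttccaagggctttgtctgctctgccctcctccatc
Gzme: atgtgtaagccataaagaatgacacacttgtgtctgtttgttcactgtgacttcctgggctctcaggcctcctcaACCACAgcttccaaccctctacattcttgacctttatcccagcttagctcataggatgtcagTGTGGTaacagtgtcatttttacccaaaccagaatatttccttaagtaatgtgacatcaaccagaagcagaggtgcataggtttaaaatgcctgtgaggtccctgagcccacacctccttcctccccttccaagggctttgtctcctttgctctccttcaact

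Each of the 5 granzyme windows held 2 matches to this core. Neither marked core was particular to its genes. TGTGGT also had a match in the Il17a and Il17f windows, and AGGTCA in those of Gzmc, Gzmd and Gzme, which are not marked. The TGTGGT core was found in 29.7% of the 101 lower genes with a window, in 17.9% of the 263 higher genes and in 14.2% of all 15614. Since the granzyme windows are copies of each other, they are not separate observations. The AP-1 motif TGANTCA was in 11.0% of higher, 7.92% of lower and 6.93% of all windows. The NFAT core GGAAAA was in 28.5%, 24.8% and 22.4%, the STAT motif TTCNNNGAA in 6.46%, 7.92% and 7.79%, and the T-box motif AGGTGTGA in 1.14%, 1.98% and 1.12%. The AhR core GCGTG was in 39.9%, 25.7% and 41.2%. All 7 motifs were searched on both strands, and a few matches overlap, most often STAT with NFAT matches (56 of all windows). Genes that met the rule beside a neighbour of the same direction were 40 of 333 higher genes, in 19 runs, and 20 of 128 lower genes, in 7 runs. No such share was computed over all genes, so these counts do not show whether neighbours met the rule together unusually often.

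Several single genes of other functions were lower in the Th17 culture. Akr1c18, an enzyme that breaks down progesterone, read 9.88 and 4.99 unstimulated and 12.12 and 6.85 restimulated. Epas1, which encodes the hypoxia factor HIF-2α, read 10.16 and 6.65 unstimulated and 10.33 and 6.63 restimulated. P2rx3, an ATP-gated channel, read 10.09 and 5.82 unstimulated and 9.33 and 5.93 restimulated, but its second probe set read between 5.82 and 6.35 on all 4 arrays. Trat1, an adaptor of the T cell receptor complex, read 9.04 and 5.85 unstimulated and 8.36 and 5.57 restimulated. Car1, a carbonic anhydrase, read 10.42 and 7.54 unstimulated and 9.58 and 6.76 restimulated.

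Genes of the inhibitory receptor list, which also holds ligands such as Cd200, were more often lower than higher in the Th17 culture. Of 13 measured, 5 were lower (Entpd1, Tigit, Havcr2, Cd160 and Lag3) and 1, Cd200, was higher, with list medians of -0.86 and -0.65. Entpd1, the ectoenzyme CD39, read 11.53 and 8.41 unstimulated and 10.46 and 8.22 restimulated. Nt5e, the partner enzyme CD73 that completes the conversion of ATP to adenosine, went the other way and read 8.89 and 10.72 unstimulated and 7.27 and 10.74 restimulated. Among 12 regulatory T cell genes, 3 were higher (Nt5e, Itgae and Ikzf4) and 3 lower (Entpd1, Izumo1r and Nrp1). Foxp3 differed by -0.68 and 0.45.

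Homing receptors divided in a similar way. Of 26 measured, 6 were higher in the Th17 culture (Ccr6, Gpr15, Itgae, Cxcr4, Ccr4 and Gpr183) and 2 were lower (Cxcr3 and Ccr9), with list medians of 0.27 and 0.06. Gpr15, a receptor that directs T cells to the colon, read 7.72 and 10.03 unstimulated and 6.48 and 8.98 restimulated. Ccr9, which directs them to the small intestine, read 9.29 and 5.56 unstimulated and 7.63 and 6.49 restimulated. Ccr7, the receptor for entry into lymph nodes, differed by 0.36 and 0.56 and did not meet the rule.

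In several groups at most 1 gene met the rule. Over all genes 1.67% were higher and 0.642% lower, so counts of 0 or 1 in lists this short say little either way. None of 31 cell cycle genes and none of 8 AhR target genes met the rule, with medians of -0.08 and 0.42 and of 0.19 and 0.50. Of 15 stem-like memory and Wnt genes, 1, Kit, was higher, and Kit is also on the mast cell and basophil list. Lef1 differed by 0.22 and 0.34 and Il7r by -0.29 and -0.22, while Tcf7 had no probe set of its own. Of 19 glycolysis genes, 1, Aldoc, was higher, with list medians of 0.62 and 0.22. The 26 interferon-stimulated genes had a median of -1.20 unstimulated and 0.18 restimulated, so the list was lower in the Th17 culture in 1 state only, and 1 gene, Isg20, met the rule.

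Some genes that the rule leaves out differed by at least 1 log2 unit in 1 state only, and these are given as levels. Il4 read 6.68 and 6.26 log2 units unstimulated and 11.47 in Th1 against 6.30 in Th17 after restimulation. Il5 read 5.37 and 5.18 unstimulated and 10.04 against 5.38 restimulated. Of the 4 culture arrays, that of restimulated Th1 cells alone was high for Il4 and Il5. Il13, another type 2 cytokine, read 8.35 and 8.58 unstimulated and 12.47 and 10.99 restimulated, high in both restimulated cultures. In recovered, sorted cells at day 5 restimulated Il4 read 9.84, 9.28 and 10.73 in Th1 against 7.90, 6.49 and 6.85 in Th17 (log2 fold change -2.87, adjusted p = 0.000261 by limma). At day 15 restimulated it read 10.57 and 7.75 against 7.38, 6.37, 6.58 and 6.24 (-2.52, adjusted p = 0.00187), and without Th1 sample 1 the difference was -1.11 (adjusted p = 0.189). Il2, the T cell growth factor, read 5.69 in Th1 and 8.75 in Th17 unstimulated, but 12.38 and 12.35 restimulated. Csf2, which encodes GM-CSF, read 7.94 and 7.42 unstimulated and 12.42 and 10.62 restimulated.

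**Figure D3:**
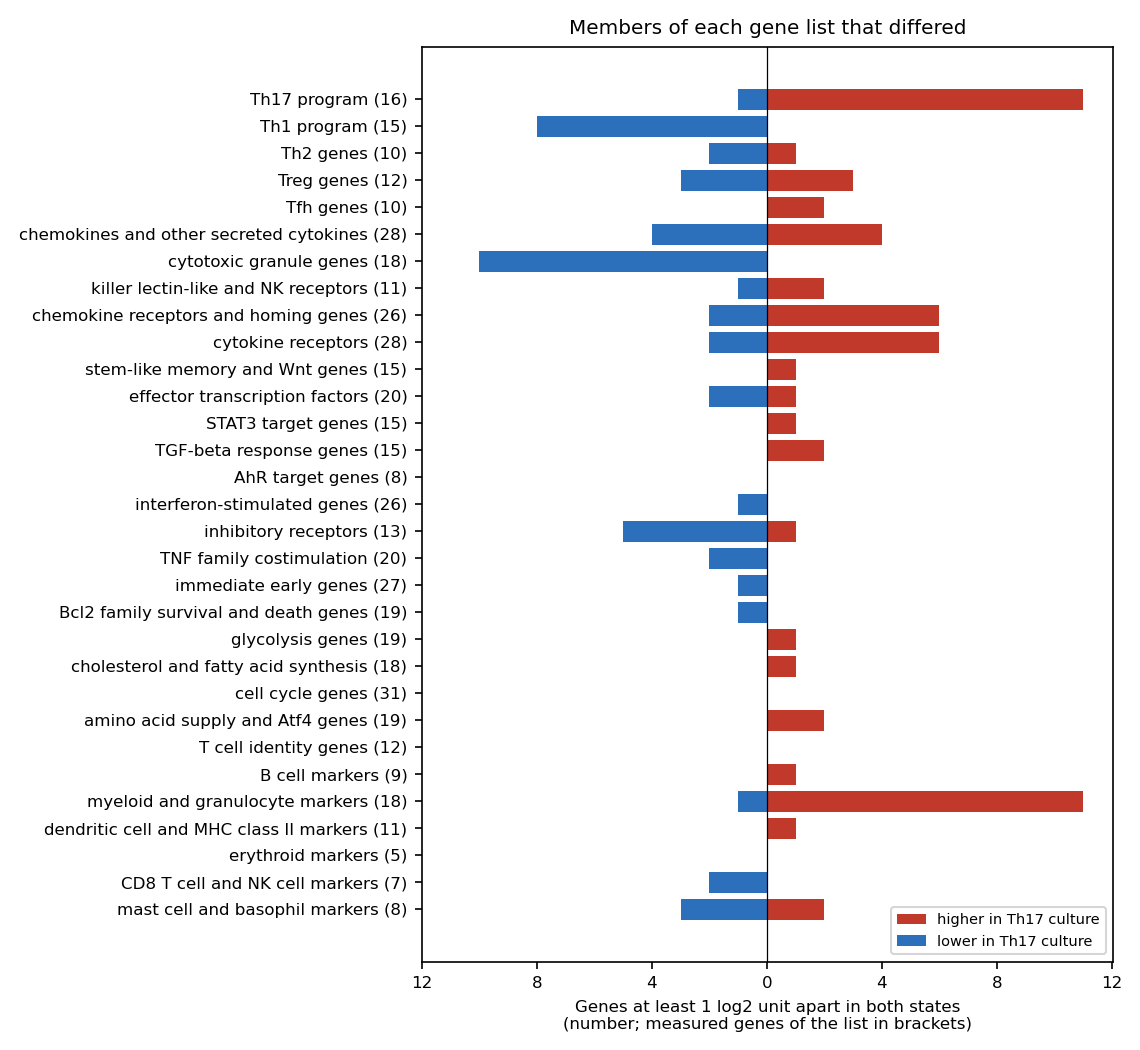
Number of genes of each of 31 gene lists (x axis) that were at least 1 log2 unit higher (red, right) or lower (blue, left) in the Th17 culture in both states, with the number of measured genes in brackets. The Th17 program and the myeloid markers each have 11 higher genes, and the cytotoxic granule list has 10 lower genes.

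Markers of cells other than CD4+ T cells were present in the cultures and moved with part of these differences. Of 58 measured markers over 6 such lists, 15 were higher in the Th17 culture and 6 lower. Myeloid and granulocyte markers made up most of them: of 18 measured, 11 were higher and 1, Ly6g, was lower, and their mean level was 6.84 log2 units in Th1 and 8.78 in Th17 unstimulated, and 6.65 and 8.36 restimulated. Ngp, a neutrophil granule protein, read 6.27 and 11.39 unstimulated and 5.99 and 11.27 restimulated. Lyz2, the lysozyme of macrophages and neutrophils, read 8.74 and 12.07 unstimulated and 7.51 and 11.14 restimulated. Lcn2, an iron-sequestering protein that neutrophils store, read 7.52 and 11.11 unstimulated and 7.23 and 10.96 restimulated. Chil3, a chitinase-like protein of macrophages, read 4.58 and 8.30 unstimulated and 4.47 and 7.87 restimulated. The dendritic cell and MHC class II list moved less, with 1 of 11, Itgax, higher and means of 7.92 and 8.21 unstimulated. In bulk RNA, fewer cells of a type and less RNA per cell cannot be told apart, and the part these cells had in the differences was not tested.

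Mast cell and basophil markers were high in both cultures alike. Their mean over 8 genes was 10.02 log2 units in Th1 and 9.99 in Th17 unstimulated, and 10.09 and 10.08 restimulated. After transfer the same mean lay between 5.32 and 6.50 on the 24 arrays. Cpa3, the mast cell carboxypeptidase, read between 12.94 and 13.02 on the 4 culture arrays and between 4.75 and 7.80 on the later ones. Fcer1a, a chain of the high-affinity IgE receptor, read between 11.11 and 11.69 in culture and between 4.52 and 5.51 later. The members split between the cultures: Ms4a2 (2.76 and 2.89) and Kit (1.30 and 1.76) were higher in Th17, and Prss34 (-2.18 and -2.18), Mcpt4 (-1.60 and -1.95) and Mcpt8 (-1.0 and -1.05) were lower. The Mcpt4 and Mcpt8 genes adjoin the granzyme run on chromosome 14. Whether the granzyme, Il4 and Il5 levels of the cultures came from T cells or from such cells was not tested.

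**Figure D4:**
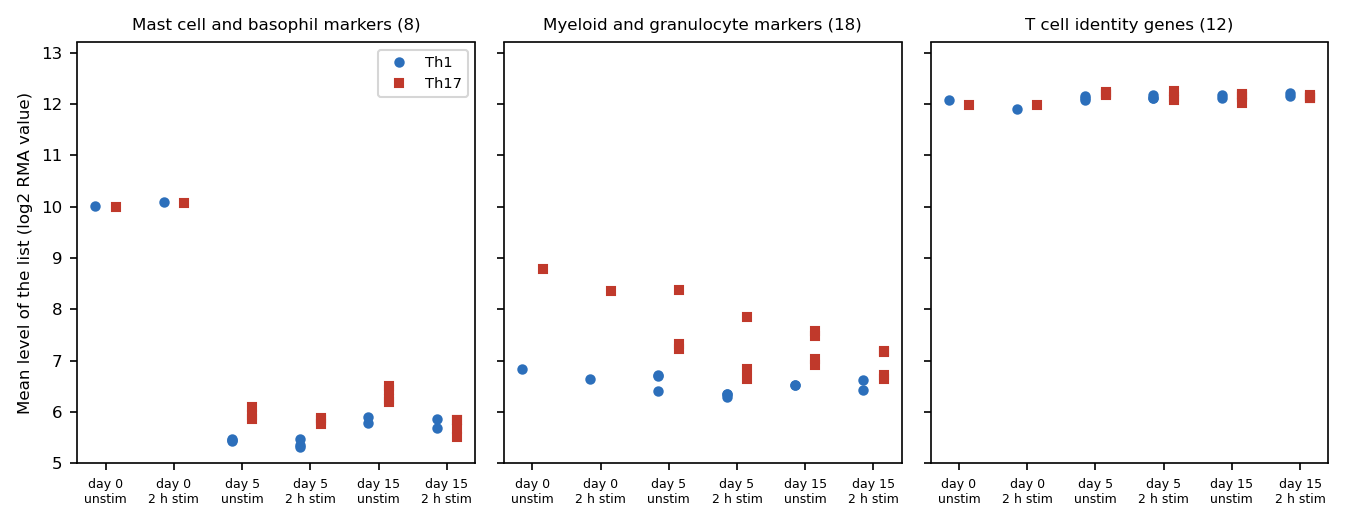
Mean level in log2 units (y axis) of 3 marker lists on each of the 28 arrays, grouped by day and stimulation state, with circles for Th1 and squares for Th17. Mast cell and basophil markers lie near 10 in the cultures and at or below 6.50 after transfer, myeloid markers are higher in Th17 arrays at day 0, and T cell identity genes stay near 12.

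The 24 arrays of recovered cells took no part in choosing these genes and allow a test. Th17 and Th1 cells were compared at each day and state with limma over all genes, with Benjamini-Hochberg adjustment and an adjusted p under 0.05 as the call. No label ties a sample to a host of its own, so the spread behind each p-value may be technical. Recovered cells were split and one portion was restimulated, so the states at a day share their cells and are not separate evidence. Of the 333 genes higher in culture, 98 were again higher in Th17 cells at day 5 unstimulated (29.4%, against 2.31% of all genes), and 1 was called lower. At day 5 restimulated the counts were 103 (30.9%, against 2.95%) and 1. At day 15 they were 59 unstimulated (17.7%, against 1.88%) with 5 opposite, and 54 restimulated (16.2%, against 3.45%) with 14 opposite. The median log2 fold change of the 333 genes was 0.28, 0.32, 0.16 and 0.04 in this order, against -0.04, 0.00, 0.02 and -0.03 over all genes.

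Of the 128 genes lower in culture, 28 were again lower at day 5 unstimulated (21.9%, against 1.32% of all genes) and 28 restimulated (21.9%, against 1.02%), with 8 and 2 opposite. With array weights the day 5 unstimulated count was 44. At day 15 the counts were 50 unstimulated (39.1%, against 2.28%) and 48 restimulated (37.5%, against 2.98%), with 4 and 2 opposite. The medians were -0.21, -0.25, -0.41 and -0.35. The day 15 unstimulated counts depended on single Th1 samples: without Th1 sample 1 they were 38 higher and 26 lower genes, and without Th1 sample 2 the lower count was 21. With array weights the day 15 restimulated counts were 32 and 23. A difference between the days was not tested. Over all 4 comparisons, 41 of the 333 and 17 of the 128 genes were called in the culture's direction every time, and 134 and 64 at least once.

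**Figure D5:**
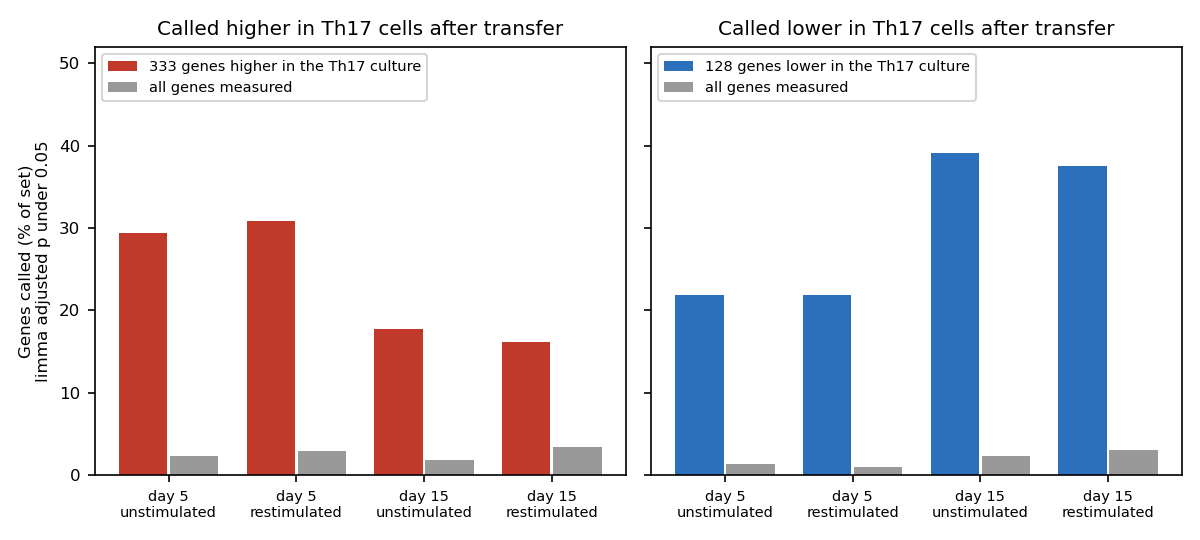
Percent of genes (y axis) called higher (left) or lower (right) in Th17 than in Th1 cells at each day and state after transfer, by limma at adjusted p under 0.05. Coloured bars are the culture genes of that direction and grey bars all genes measured, which lie between 1.02% and 3.45%.

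Several cytokine receptor genes higher in culture were higher again in recovered Th17 cells. Il23r at day 5 unstimulated read 6.0, 5.84 and 5.79 log2 units in the Th1 samples and 8.86, 9.36 and 9.25 in the Th17 samples (log2 fold change 3.28, adjusted p = 7.29e-12 by limma). At day 15 unstimulated it read 7.03 and 6.31 in Th1 and 8.05, 8.06, 7.70 and 7.73 in Th17 (1.22, adjusted p = 0.000111). The groups did not overlap at either day, and every Th17 sample was below the 11.20 of the culture. Il17re read 6.58, 6.64 and 6.49 against 9.32, 8.65 and 9.30 at day 5 unstimulated (2.52, adjusted p = 1.47e-10), and 6.94 and 6.80 against 9.18, 9.13, 9.09 and 9.14 at day 15 (2.27, adjusted p = 5.36e-09). Ifngr2 at day 15 unstimulated read 7.68 and 8.07 against 10.21, 10.29, 9.98 and 10.20 (2.29, adjusted p = 9e-07). Of the 6 genes of the cytokine receptor list that were higher in culture, 5 were called at day 5 unstimulated and 6 restimulated, and 4 in each comparison at day 15. Over all genes, 2.31% and 2.95% were called higher at day 5 and 1.88% and 3.45% at day 15. Il1rn was called at day 5 restimulated only (adjusted p = 0.0436 by limma), and without Th17 sample 1 its adjusted p was 0.375.

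Less studied genes lasted as well. Pcsk1, a protease that processes prohormones, read 5.87, 6.15 and 6.09 in Th1 against 9.72, 9.0 and 9.78 in Th17 at day 5 unstimulated (3.46, adjusted p = 1.32e-10 by limma) and 6.42 and 6.89 against 10.42, 10.76, 10.30 and 10.46 at day 15 (3.83, adjusted p = 5.49e-10). Its Th17 levels at day 15 lay above the 8.38 of the unstimulated Th17 culture. Ermn at day 15 unstimulated read 7.23 and 6.99 against 9.26, 9.19, 8.49 and 9.34 (1.96, adjusted p = 1.43e-05). Igfbp4, a secreted binding protein of insulin-like growth factors, read 7.79 and 8.75 against 11.51, 11.52, 11.34 and 11.42 (3.18, adjusted p = 8.42e-08). Tmem176b read 9.09 and 9.27 against 11.62, 11.53, 11.33 and 11.51 (2.31, adjusted p = 5.63e-09). In each of these the groups did not overlap.

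The cytokines themselves were seen again only in part. Il17a at day 5 unstimulated read 6.41, 6.44 and 6.33 in Th1 and 6.79, 6.71 and 7.15 in Th17, far below the 11.86 of the culture (log2 fold change 0.49, adjusted p = 0.565 by limma). After restimulation it read 6.52, 6.45 and 6.50 against 10.31, 10.21 and 10.30 (3.78, adjusted p = 8.88e-09). At day 15 restimulated the Th17 samples read 8.93, 6.85, 7.32 and 7.02 against 6.59 and 6.38 in Th1 (1.05, adjusted p = 0.0509), with 1 Th17 sample well above the others. Il17f was likewise called at day 5 restimulated (3.26, adjusted p = 7.35e-12) and in no other comparison. In the Th17 program list, 9 of the 11 higher genes were called at day 5 restimulated and 6 in each of the unstimulated comparisons. At day 15 restimulated 5 were called, and Il21 was called in the opposite direction. The shares of all genes called higher were 2.31% and 2.95% at day 5, unstimulated and restimulated, and 1.88% and 3.45% at day 15.

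For several of the most separated culture genes no difference was called after transfer. Of the 15 largest in the higher direction, 4 were called in none of the 4 comparisons (Timp1, Crispld2, Il12b and Chil3) and 3 in all (Il23r, Ermn and Fam124b). Timp1 read between 5.66 and 6.78 on the 24 arrays, against 11.68 and 12.14 in the Th17 cultures, and Il12b between 5.93 and 6.71. Lum read at most 5.47. Its only call, at day 5 restimulated (log2 fold change 0.60, adjusted p = 0.045 by limma), was lost under 8 alternatives, with the replicate block (adjusted p = 0.0523) and without Th17 sample 3 (adjusted p = 0.316) among them. Dab2, first in culture by the smaller difference, was called at day 5 restimulated only, where Th1 read 5.60, 5.95 and 5.48 and Th17 7.18, 7.22 and 7.74 (1.70, adjusted p = 8.4e-08). Outside those 3 Th17 samples, no recovered sample read above 6.17 for Dab2.

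Gzmc, Gzmd, Gzme, Gzmf and Gzmg showed the same in the other direction. Gzmd at day 5 unstimulated read 3.71, 3.59 and 3.54 in Th1 and 3.94, 3.73 and 3.70 in Th17 (0.17, adjusted p = 0.626 by limma), and its highest value on the 24 arrays was 4.01, against 9.98 in the unstimulated Th1 culture. Gzme, Gzmf and Gzmg read at most 6.06, 5.50 and 5.10 after transfer, and Gzmc at most 7.24. None of the 5 was called in any comparison. Gzmb, on the same chromosome, stayed between 10.34 and 12.68 after transfer. At day 15 unstimulated it read 12.13 and 12.24 in Th1 against 10.75, 10.41, 10.57 and 10.80 in Th17 (-1.55, adjusted p = 2.68e-05), and it was lower restimulated too (-1.43, adjusted p = 7.37e-05), with no call at day 5. Nkg7 went the opposite way in level: it read between 12.68 and 13.38 on all 24 arrays, so recovered Th17 cells were near the 13.12 of the Th1 culture and far above the 8.66 of their own. It was still called lower in Th17 cells at day 15 unstimulated (-0.58, adjusted p = 0.000317).

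Other lower genes kept a difference. Gzma at day 15 unstimulated read 11.53 and 11.15 in Th1 against 9.31, 9.07, 8.64 and 8.84 in Th17 (log2 fold change -2.38, adjusted p = 5.81e-09 by limma). Gzmk read 10.46 and 10.76 against 9.06, 8.89, 9.35 and 8.95 (-1.55, adjusted p = 9e-07). Epas1 at day 5 unstimulated read 11.20, 11.30 and 11.18 against 9.22, 9.39 and 9.55 (-1.84, adjusted p = 3.15e-07) and at day 15 10.25 and 10.21 against 8.96, 8.57, 8.19 and 9.0 (-1.55, adjusted p = 9.31e-06). In Th17 cells it was thus above the 6.65 of the culture while staying below Th1. Akr1c18 read 7.86, 7.74 and 7.80 against 4.98, 4.86 and 4.33 at day 5 unstimulated (-3.08, adjusted p = 3.68e-10). At day 15 unstimulated its difference was -1.03 (adjusted p = 0.00509), and without Th1 sample 1 the adjusted p was 0.113. Of the 10 granule genes lower in culture, 2 (Gzma and Gzmk) were called at day 5 unstimulated and 5 at day 15 unstimulated. Over all genes, 1.32% and 2.28% were called lower in these comparisons. Gzmk lost its call at day 5 unstimulated without Th17 sample 3 (adjusted p = 0.0651).

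A few genes were called in the direction opposite to that of the cultures. Trat1, lower in the Th17 culture, read 7.48, 7.35 and 7.51 in Th1 against 9.40, 9.38 and 9.0 in Th17 at day 5 unstimulated (log2 fold change 1.81, adjusted p = 6.56e-09 by limma). At day 15 unstimulated it read 7.86 and 8.12 against 9.35, 9.30, 8.73 and 9.29 (1.18, adjusted p = 1.43e-05), and it was higher in both restimulated comparisons too (1.95 and 1.75). The unstimulated Th17 samples after transfer thus read between 8.73 and 9.40, against 5.85 in the unstimulated Th17 culture and 9.04 in the Th1 culture. Ctsg, a serine protease of myeloid and mast cells, read 6.75 and 7.12 against 8.47, 9.12, 8.21 and 8.65 at day 15 unstimulated (1.68, adjusted p = 4.83e-05). Itgax, the integrin chain CD11c and higher in the Th17 culture, was lower in Th17 cells in all 4 comparisons (between -1.09 and -1.57), but each of these calls was lost under some alternative. Without Th17 sample 1 the day 5 difference was -0.65 unstimulated (adjusted p = 0.203, from 0.0235) and -0.82 restimulated (adjusted p = 0.13). At day 15 the adjusted p was 0.0511 unstimulated without Th1 sample 2, and restimulated 0.0688 without Th1 sample 1, 0.0624 with the replicate block and 0.127 with array weights. Il21 was lower in Th17 cells at day 15 restimulated (-2.50, adjusted p = 0.00928), a call lost without Th1 sample 1 (adjusted p = 0.293). In all, 16 of the 333 and 10 of the 128 genes were called in the opposite direction at least once.

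Myeloid markers differed between the recovered cells as well. Their mean over 18 genes was between 6.41 and 6.72 in the Th1 samples and between 7.22 and 8.38 in the Th17 samples at day 5 unstimulated, with Th17 sample 1 highest. At day 15 unstimulated it was between 6.52 and 6.53 in Th1 and between 6.92 and 7.58 in Th17. Lcn2 at day 5 unstimulated read 6.48, 7.29 and 7.13 against 12.06, 9.31 and 10.13 (log2 fold change 3.53, adjusted p = 0.00145 by limma). Wfdc17, a secreted protein of myeloid cells, read 5.57, 7.26 and 6.56 against 11.60, 8.87 and 10.02 (3.70, adjusted p = 0.000279). The Th17 samples varied more than the Th1 samples in both, with sample 1 highest. Of the 11 myeloid markers higher in culture, 4 were called at day 5 unstimulated (Lcn2, Ngp, S100a8 and S100a9) and 2 at day 15 unstimulated (Elane and Lyz2). The restimulated counts were 3 and 1. At day 5 and day 15, the shares of all genes called higher were 2.31% and 1.88% unstimulated and 2.95% and 3.45% restimulated. Itgam, another of the 11, was called lower in Th17 cells at day 15 in both states, but lost the unstimulated call without either Th1 sample (adjusted p = 0.136 each time) and with the replicate block (adjusted p = 0.0976), and the restimulated call with array weights (adjusted p = 0.152). The part of such cells in the other differences was not tested.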

How the data were processed

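RNA of each sample was hybridised to an Affymetrix mouse array. The authors deposited log2 RMA values from Affymetrix Expression Console, per the submitters' processing notes; which arrays were normalised together is not given in the sources used here, and RMA draws the distributions of arrays together. Of 35556 probe sets, 21789 had 1 gene symbol, 1621 several and 12146 none; the first were used, and the probe set with the highest mean stood for a gene (999 genes had several), leaving 19938 genes. Of those probe sets, 21698 matched RefSeq by identifier. Arrays have no read depth; their number limits the precision. Python 3.11.15 with pandas 2.3.3 and R 4.3.3 with limma 3.58.1 were used.

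Day 0 differences are log2 values subtracted within a state. Recovered cells were fitted with limma (24 arrays, 8 groups, 16 residual degrees of freedom), and the script was tested on simulated data. Members and the 31 gene lists were chosen with earlier results of these data known. Named genes are the 15 largest each way by the smaller difference whose higher level exceeded the array median, a panel of 34 genes, up to 4 per list, and leading genes after transfer, the opposite calls included. Csf2, Il5, Dcn, Ikzf4 and other list members outside these were chosen after their values were seen. At day 5 restimulated, same-numbered samples deviated together (correlations 0.444, 0.483 and 0.217 over 9969 genes), so a pairing by number is likely there; at day 5 unstimulated they did not (0.035, 0.074 and -0.13). At day 15 only 2 numbers are shared (0.298 and -0.128 unstimulated, 0.654 and 0.062 restimulated), which does not settle a pairing. Alternatives covered probe set choice, centring, normalization, thresholds, filters, array weights, the prior, the replicate block and leaving out each sample. Promoter windows come from RefSeq.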

Additional observations from a re-analysis of the deposited data

Results flagged for a closer look

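Among 56 combinations of a named gene and a group of 4 samples, 2 had a single sample far from the others by Dixon's criterion, where chance gives about 1 in 20. Trat1 read 8.73 in Th17 sample 3 at day 15 unstimulated, against 9.35, 9.30 and 9.29 in the others. Il17re read 8.52 in a Th17 sample at day 15 restimulated, against 9.06, 9.17 and 9.17.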

How the results depend on the processing

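The counts of culture genes moved with the threshold. At 1.5 log2 units they were 160 higher and 52 lower genes, with 1 log2 unit in the mean of both states 501 and 221, from the unstimulated pair alone 544 and 360, and from the restimulated pair alone 662 and 226. Over the alternatives of probe set, centring and normalization they lay between 299 and 338 higher and between 128 and 149 lower genes, and centring moved the restimulated median over all genes to -0.13. After transfer, array weights gave 44 lower genes at day 5 unstimulated, and 32 higher and 23 lower genes at day 15 restimulated. Leaving out 1 sample at a time gave between 74 and 115 higher and 23 and 27 lower genes at day 5 unstimulated, 86 and 112 and 19 and 27 at day 5 restimulated, 38 and 62 and 21 and 48 at day 15 unstimulated, and 38 and 61 and 33 and 51 at day 15 restimulated. With the replicate block the counts were 100 and 27, 102 and 29, 50 and 34, and 48 and 43, and no count moved by over 1.5 times. The block ended the calls of Prxl2a at day 15 unstimulated, of Itgax and Ctsg at day 15 restimulated, of Itgam at day 15 unstimulated and of Lum at day 5 restimulated. Of the tracked values of single named genes under the alternatives, 2035 kept their direction and call, 7 gained a call and none reversed. Another 53 lost the call or, for Mcpt8 at day 0, fell under the threshold. These counts do not include Il1rn, Il4, Itgam, Lum and Nkg7, which also lost calls under some alternatives. The cause of these moves was not tested. With 1 array per culture, the day 0 differences have no measure of their spread.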
